A study of Mus musculus with 32 samples.

Results

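The DNA replication machinery was followed here as 55 genes, chosen by symbol from the mouse tables: the origin recognition, MCM, GINS, clamp loader, RPA, primase and replicative polymerase genes, together with 15 named licensing, kinase, clamp, nucleotide, ligation, topology and histone deposition genes. All 55 were present among the 24013 genes of the stage table and among the 22536 genes of each of the 2 knockdown tables. The symbols starting with Mcm brought in Mcm3ap, which encodes an mRNA export factor and not a helicase subunit, so it is described apart from the helicase.

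RNA was sequenced in 32 samples of mouse oocytes, cleaving embryos, blastocysts and a stem cell line. Oocytes at metaphase II (MII oocyte, 2 samples) came from superovulated C57BL/6N females 20 h after hCG. A cross of superovulated C57BL/6N females to DBA/2N males gave the zygote, early 2-cell, 2-cell, 4-cell and 8-cell samples (2 of each) and the inner cell mass (ICM, 3 samples, taken from blastocysts by immunosurgery). The mESC samples (2) were the R1 line grown with LIF and serum. The knockdown part held 4 control and 4 Nr5a2 siRNA samples at the 8-cell stage, and 3 control and 4 Gata4 siRNA samples at the blastocyst stage, of the same cross, with injected embryos kept in CZB medium with glutamine. Nr5a2 and Gata4 encode an orphan nuclear receptor and a GATA factor of the primitive endoderm. The siRNA acts in the whole embryo, and neither the number of embryos in a sample nor what the control embryos were injected with is given in the labels.

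DNA replication starts where the origin recognition complex, with Cdc6 and Cdt1, loads the MCM2-7 helicase as an inactive ring; geminin (Gmnn) blocks reloading. The Cdc7-Dbf4 kinase then lets Cdc45 and GINS join and activate the helicase, after which primase and the polymerases copy the strands behind it, held by the PCNA clamp, and Fen1 and Lig1 join the lagging strand pieces. The early mouse embryo begins with RNA and protein stored in the oocyte and replaces the RNA with its own during the 2-cell stage, while cleavage continues without growth.

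Genes of this machinery are classical targets of E2F transcription factors, and promoter sequence for 47 of the 55 members was found in RefSeq (build GRCm38.p6, 250 bases before to 50 after the start of transcription; the deposited values were made on mm9). The letters TTTCCCGC, TTTGGCGC, TTTCGCGC or TTTGCCGC, on either strand and with overlaps allowed, were present in the windows of 17 of the 47 (36.2%), against 2.6% of the 27025 genes with a window. By role the letters were found in 4 of 5 MCM2-7 genes with a window, in both Cdc6 and Cdt1, in 5 of 10 polymerase genes, in 2 of 6 origin recognition genes and in none of the 3 RPA or 3 histone deposition genes. The 250 bases before the start are shown for 3 helicase genes and the loader Cdc6, with those letters in capitals, and for Asf1b, which holds none of them but has the letters TTTGAA, in capitals, known as the cell cycle homology region core.
Mcm5: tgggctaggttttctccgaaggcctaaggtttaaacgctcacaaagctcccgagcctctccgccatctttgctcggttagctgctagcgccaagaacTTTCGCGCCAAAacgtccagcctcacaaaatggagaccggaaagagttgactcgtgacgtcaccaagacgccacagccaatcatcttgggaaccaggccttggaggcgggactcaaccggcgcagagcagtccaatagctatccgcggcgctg
Mcm6: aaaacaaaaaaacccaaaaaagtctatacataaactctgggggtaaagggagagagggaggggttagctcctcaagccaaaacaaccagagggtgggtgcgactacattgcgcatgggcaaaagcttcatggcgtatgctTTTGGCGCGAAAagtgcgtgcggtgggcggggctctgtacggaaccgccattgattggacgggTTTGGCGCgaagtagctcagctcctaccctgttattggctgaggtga
Mcm7: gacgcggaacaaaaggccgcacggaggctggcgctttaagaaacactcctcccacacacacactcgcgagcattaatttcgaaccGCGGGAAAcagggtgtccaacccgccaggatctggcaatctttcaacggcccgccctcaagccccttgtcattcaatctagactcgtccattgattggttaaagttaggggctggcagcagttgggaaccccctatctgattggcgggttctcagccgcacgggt
Cdc6: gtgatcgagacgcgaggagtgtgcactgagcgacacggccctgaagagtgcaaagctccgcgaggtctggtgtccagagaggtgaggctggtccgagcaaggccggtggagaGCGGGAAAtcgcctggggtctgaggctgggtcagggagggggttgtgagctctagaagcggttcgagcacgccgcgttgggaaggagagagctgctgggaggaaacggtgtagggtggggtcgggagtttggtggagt
Asf1b: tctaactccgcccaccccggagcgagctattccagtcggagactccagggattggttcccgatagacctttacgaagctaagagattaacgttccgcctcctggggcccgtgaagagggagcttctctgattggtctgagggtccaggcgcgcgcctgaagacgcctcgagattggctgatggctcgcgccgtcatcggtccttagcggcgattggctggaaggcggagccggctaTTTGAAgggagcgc
These lie at chr8:75109259-75109508 (Mcm5, plus strand), chr1:128359706-128359955 (Mcm6, minus strand), chr5:138171884-138172133 (Mcm7, minus strand), chr11:98907901-98908150 (Cdc6, plus strand) and chr8:83955444-83955693 (Asf1b, plus strand). In Mcm5 and in Mcm6 a pair of matches on opposite strands overlaps, 153 and 149 bases before the start in Mcm5 and 110 and 106 bases before it in Mcm6, and Mcm6 has another match 47 bases before. In the bases printed, the match lies 165 bases before the start in Mcm7 and 138 bases before it in Cdc6; Mcm7 has another in the RefSeq windows, 16 bases after a start. TTTGAA on either strand was no more frequent in members (9 of 47, 19.1%) than in all genes (20.2%). The NR5A2 half-site letters CAAGGNCA, on either strand, were in 4 member windows (Cdc6, Pold1, Rfc1 and Rpa2; 8.51%, against 7.64% of all genes), and not in those of Asf1b or Cdc7.

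The values are FPKM, fragment counts scaled by transcript length and library size, so levels can be set beside each other between genes within a table. The stage table gives 1 deposited value per stage, with no replicate values, so differences between stages have no error and no test. Its columns summed to between 234738 and 495643 FPKM. The ribosomal precursor gene Rn45s was listed at 6967, 6829 and 2555 FPKM in MII oocyte, early 2-cell and mESC and at 0 in the other 5 stages, and the submitters' notes name Cufflinks for all stages except MII oocyte and early 2-cell. The labelled stages carried their own markers: 6 oocyte genes summed to 5853 FPKM in MII oocyte and 2.16 in mESC, 6 genes of the 2-cell stage to 424 in early 2-cell and 0.377 in ICM, and 6 pluripotency genes to 625 in ICM and 703 in mESC. The 6 trophectoderm genes summed to 167 FPKM in ICM against 58.4 at the 8-cell stage, and their part in the ICM levels was not tested. In whole embryos, less RNA per cell and fewer cells with an RNA cannot be told apart. In the 8-cell table the value of 1 read, read from the steps between low FPKM values, differed up to 2.8-fold between libraries, so library depth differed by about as much; absolute read totals are not given in the sources used here.

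**Figure D1:**
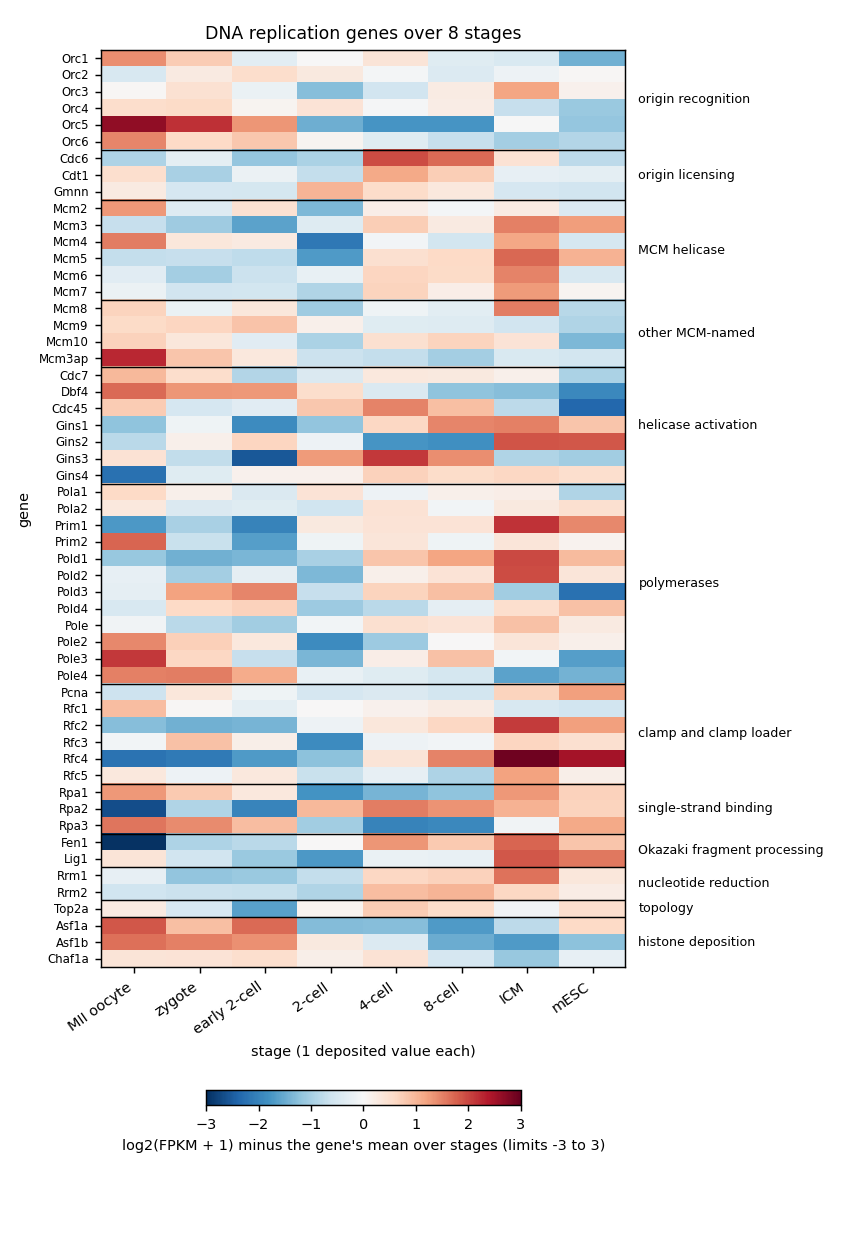
Levels of the 55 genes at 8 stages as log2(FPKM + 1) minus each gene's mean over stages (colour; rows are genes by role, columns are stages with 1 deposited value each). Helicase genes are lowest at the 2-cell stage or earlier and most are high in ICM, while Dbf4, Orc5, Asf1b and Pole4 are highest in the oocyte or zygote.

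Replication genes did not form one profile across the 8 stages. Of the 52 members that reached 5 FPKM at some stage, 18 had their highest level in MII oocyte (34.6%, against 26.2% of all genes with such a level) and 17 in ICM (32.7%, against 17.7%). The lowest level fell at the 2-cell stage in 13 members (25%, against 7.59% of all genes), among them Mcm2, Mcm4, Mcm5, Mcm7, Rpa1, Rfc3, Pole2 and Lig1. With stages scaled to one median, 14 of the 52 had their maximum in MII oocyte (against 22.8% of all genes) and 10 in ICM (against 11.6%). In mESC 14 of the 52, in place of 2, had it (against 19.5% of all genes, in place of 10.8%). Before scaling, the median gene was at 16.7 FPKM in ICM and 9.53 in mESC.

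The origin recognition genes, which mark where replication starts, had their maxima at different stages, 3 of the 6 (Orc1, Orc5 and Orc6) in MII oocyte. Orc6 went from 366 FPKM in MII oocyte to 200 in zygote, 229 in early 2-cell, 139 in 2-cell, 102 in 4-cell, 80.7 in 8-cell, 64.1 in ICM and 71.3 in mESC. Orc5 was at 354, 253 and 140 FPKM in the first 3 stages, at 15.5 to 19.4 in 2-cell, 4-cell and 8-cell, and at 54.3 in ICM. Orc1 also had its maximum in the oocyte, with 55.3 FPKM, and its minimum in mESC, with 6.88. Orc2 varied least in this complex, between 22.1 and 45.5 FPKM, and Orc3 stayed the scarcest subunit through the 8-cell stage, with 1.9 to 8.51 FPKM. The gap between the highest and lowest subunit was 59.7-fold in MII oocyte and 4.37-fold in ICM.

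The licensing factors had later maxima. Cdc6, the ATPase that helps load the helicase, stood at 5.29 to 10.5 FPKM from oocyte to 2-cell, at 53.7 in 4-cell and 44.7 in 8-cell, then at 17.8 in ICM and 7.06 in mESC. Cdt1, its loading partner, was at 28.3 FPKM in 2-cell and at 106 in 4-cell. Gmnn, the inhibitor of Cdt1, was highest one stage earlier, at 474 FPKM in 2-cell, and lowest at 156 in mESC.

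The 6 helicase genes converged in level with development. In MII oocyte they ranged from Mcm5 at 11.5 FPKM to Mcm4 at 129, an 11.2-fold gap, and in mESC from Mcm4 at 30.9 to Mcm3 at 51, a 1.65-fold gap. Mcm4 was at 129, 55.7, 53.2, 9.17, 41.3, 29.5, 99.4 and 30.9 FPKM from MII oocyte to mESC in developmental order, with its minimum at the 2-cell stage. Mcm2 behaved alike up to the 4-cell stage, from 115 FPKM in MII oocyte to 17.4 in 2-cell and 53.1 in 4-cell. Mcm5 was near 11 to 12 FPKM through early 2-cell (11.5, 11.7 and 11.1), at 5.36 in 2-cell, 27.8 in 4-cell, 30.1 in 8-cell and 66.6 in ICM. Mcm6 was the most abundant of the 6 from 2-cell to ICM, with 51.9, 95.9, 90.5 and 171 FPKM. Over the 8 stages Mcm5 and Mcm7 were the pair most alike (Pearson r = 0.91, Spearman rho = 0.83), and 13 of 15 pairs had a positive r; reads of Mcm7 can also come from a processed pseudogene, Gm5487, 97.7% identical over its coding sequence.

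Other genes of the MCM name differed from the helicase. Mcm8, which works in recombination, was at 18.6 FPKM in ICM and 2.27 in 2-cell, and Mcm9, its partner, never exceeded 3.11 FPKM. Mcm10, which joins the active fork, was between 11.1 FPKM in mESC and 48.6 in MII oocyte. Mcm3ap was at 22 FPKM in MII oocyte and at 1.38 to 2.5 from 2-cell on.

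Among the activators, the kinase and GINS genes moved in different directions over the stages. Dbf4, the activating subunit of Cdc7, was as deposited lower at each stage than at the one before, from 377 FPKM in MII oocyte through 287, 283, 165, 84.6, 49.4 and 47 to 29.3 in mESC. With stages scaled to one median, 2 of its steps were positive on the log2 scale: zygote to early 2-cell (0.14) and ICM to mESC (0.12). Cdc7 itself was at 26.7 FPKM in MII oocyte, 6.64 in early 2-cell, 16.7 in 4-cell and 6.3 in mESC. Cdc45 peaked in 4-cell at 173 FPKM and was lowest in mESC at 11.1. Gins2 and Gins3, both subunits of the GINS complex, ran opposite to each other: Gins2 was at 3.87 and 3.69 FPKM in 4-cell and 8-cell and at 60.3 in ICM, while Gins3 was at 57.1 and 34.1 in 4-cell and 8-cell and at 6.13 in ICM. Their correlation over the 8 stages was r = -0.77 (rho = -0.86), given as a description of 8 values that share libraries with all other genes. Of the 6 GINS pairs, 5 had a positive r, but the median r was only 0.11, and 0.00 when MII oocyte and early 2-cell were left out. The high 8-cell value of Gins3 was not seen in the 4 controls of the 8-cell knockdown part, normalized separately, where Gins3 was at 4.88 to 7.12 FPKM.

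**Figure D2:**
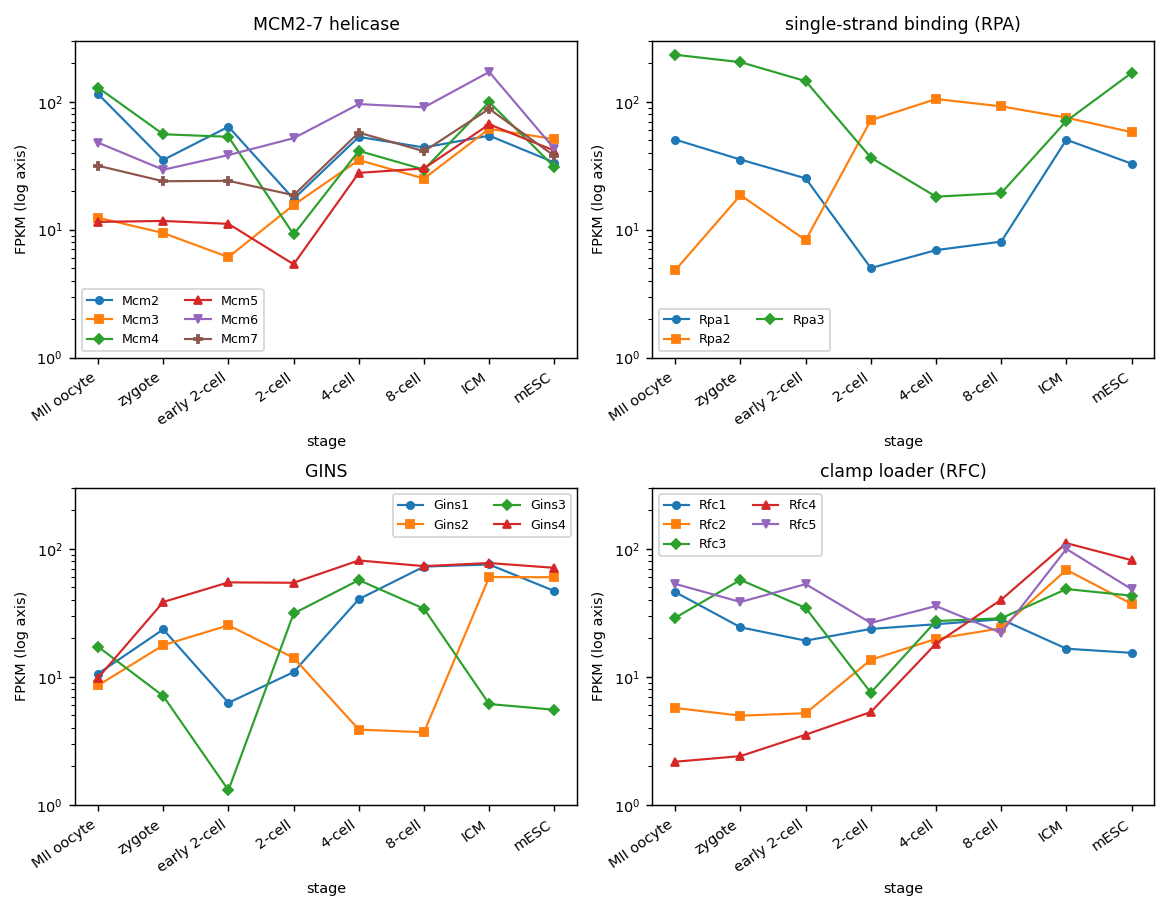
FPKM (log axis) of the MCM2-7, RPA, GINS and RFC genes at 8 stages, 1 deposited value per gene and stage. MCM2-7 converge toward mESC, Rpa2 runs opposite to Rpa1 and Rpa3, Gins3 runs opposite to Gins2, and Rfc2 and Rfc4 climb together.

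RPA, which covers single-stranded DNA as a complex of 3 subunits, showed the same kind of exchange. Rpa3 was at 233, 204 and 145 FPKM up to early 2-cell, at 36.6, 18.1 and 19.3 in 2-cell, 4-cell and 8-cell, and at 70.7 and 168 in ICM and mESC. Rpa1 had the same shape, from 50.6 FPKM in MII oocyte to 5.01 in 2-cell and 50.5 in ICM. Rpa2 was at 4.82 FPKM in MII oocyte, 8.27 in early 2-cell, 71.8 in 2-cell, 105 in 4-cell and 92.1 in 8-cell. It stayed at 75.1 FPKM in ICM and 57.9 in mESC, and in ICM the highest and lowest subunits were only 1.49-fold apart. Rpa1 and Rpa3 correlated at r = 0.84 (rho = 0.79), and Rpa2 with Rpa3 at r = -0.79 (rho = -0.9), over 8 stages.

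Polymerase subunits were unequal in level and timing. Pole4 and Pole3, the small histone-fold subunits of polymerase epsilon, were at 484 and 334 FPKM in MII oocyte, whereas the catalytic Pole was at 1.79 and never passed 4.52. Pole2 was at 34.7 FPKM in MII oocyte and 2.56 in 2-cell. In polymerase delta, the catalytic Pold1 was at 0.0968 to 0.526 FPKM up to the 2-cell stage and at 4.29, 5.78, 10.7 and 4.74 in 4-cell, 8-cell, ICM and mESC, while the accessory Pold3 was at 107 and 128 in zygote and early 2-cell and at 8.82 in mESC. Pold4 stayed at or below 3.57 FPKM, and 72.6% of its coding sequence is shared at 99.6% identity with another gene model. Of the primase pair, Prim2 was highest in MII oocyte at 57.8 FPKM and Prim1 in ICM at 87.6.

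The clamp gene Pcna was abundant at each stage of the stage table, between 91.4 FPKM in MII oocyte and 334 in mESC. In the separately normalized knockdown tables its controls were at 10.6 to 17 FPKM (8-cell) and 5.95 to 21.3 (blastocyst). Pcna has a processed pseudogene, Pcna-ps2, 99.2% identical, and its reads cannot be assigned with certainty. Of the clamp loader genes, Rfc4 was higher at each stage than at the one before up to ICM, from 2.17 FPKM through 2.4, 3.53, 5.31, 18.2 and 40.1 to 111. Rfc2 followed it from 5.71 to 68.7 FPKM (r = 0.97, rho = 0.93 over 8 stages), whereas the large subunit Rfc1 stayed between 15.4 and 46. Fen1, the flap nuclease, was listed at 0.789 FPKM in MII oocyte, 6.38 in zygote, 33.7 in 4-cell and 45.7 in ICM. A gene model of the antisense type, Gm10143, matched 100% of the Fen1 coding sequence at 100% identity, so reads of Fen1 cannot be assigned with certainty. Lig1, which seals the pieces, was at 9.43 FPKM in MII oocyte, 1.43 in 2-cell and 28.1 in ICM. Rfc5 also has a processed pseudogene, Gm12870, 96.2% identical.

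The nucleotide and chromatin partners completed the picture. Rrm2, the small subunit of ribonucleotide reductase, was at 60.2 to 74.6 FPKM up to the 2-cell stage and at 217 and 232 in 4-cell and 8-cell, and Rrm1 went from 11.2 in 2-cell to 61.4 in ICM. Top2a, which untangles the copies, was between 7.28 FPKM in early 2-cell and 42.6 in 4-cell. Asf1b and Asf1a, histone H3-H4 chaperones, were high early: Asf1b at 266, 241, 218, 103, 63.6, 29.5, 25.3 and 35.4 FPKM in developmental order, and Asf1a at 79.1 in MII oocyte and 5.71 in 8-cell. Chaf1a, the large subunit of the CAF-1 chaperone, stayed at or below 10.1 FPKM.

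Taken step by step, the 2-cell to 4-cell interval held the most members that were higher at the second stage. A gene was counted when it reached 5 FPKM in either stage, and called higher or lower when it differed by at least 1 on the log2(FPKM + 1) scale. Of 49 members counted, 19 were higher in 4-cell (38.8%, against 24.1% of all genes counted) and only Gins2 was lower (2.04%, against 17.3%). The 19 were Cdc6, Cdt1, 5 helicase genes (all but Mcm6), Mcm10, Gins1, Pola2, Pold2, Pold3, Pole3, Rfc3, Rfc4, Fen1, Lig1, Rrm1 and Rrm2. Cdc6 differed most, by 2.91, followed by Mcm5 at 2.18 and Mcm4 at 2.05. The median member differed by 0.69 and the median gene by 0.27. Of the 15 counted members with the E2F letters in their window, 8 were higher in 4-cell (53.3%), and of the 27 counted members with a window and no match, 9 were (33.3%); over all genes the shares were 24.8% with a match and 23.9% without.

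Fewer members were higher in the earlier intervals. From MII oocyte to zygote 5 of 50 members were higher, against 12.6% of all genes, and 8 were lower, against 21.6%. From zygote to early 2-cell none of 49 was higher, against 5.36%, and 8 were lower, against 8.58%; these were Cdc7, Gins1, Gins3, Orc1, Pole3, Prim1, Rpa2 and Top2a. From early 2-cell to 2-cell 9 of 50 were higher, against 34.7%, and 14 were lower, against 34.3%. MII oocyte and early 2-cell, whose notes list the same tools, differed with 5 of 49 members higher, against 14.1%, and 15 lower, against 27.6%. Zygote and 2-cell, also alike in tools, differed with 6 of 49 higher, against 33.7%, and 15 lower, against 36.3%.

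Few members differed between 4-cell and 8-cell, and more between 8-cell and ICM. From 4-cell to 8-cell 2 of 50 members were higher (Pole2 and Rfc4, against 6.90% of all genes) and Asf1b alone was lower (against 9.71%). From 8-cell to ICM 16 of 50 were higher, against 27.8%, and 5 were lower, against 21.9%. Gins2 differed most, by 3.71 on the log2(FPKM + 1) scale, followed by Rpa1 at 2.51, Rfc5 at 2.14 and Lig1 at 2.09; Gins3, at -2.30, and Pold3, at -1.95, went the other way. From ICM to mESC 2 of 51 were higher (Asf1a and Rpa3, against 11.6%) and 17 were lower, against 40.6%. That last count depends on scaling: with stages at one median, 6 of 52 members were higher (11.5%, against 26.7% of all genes) and 2 were lower (3.85%, against 18.3%).

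**Figure D3:**
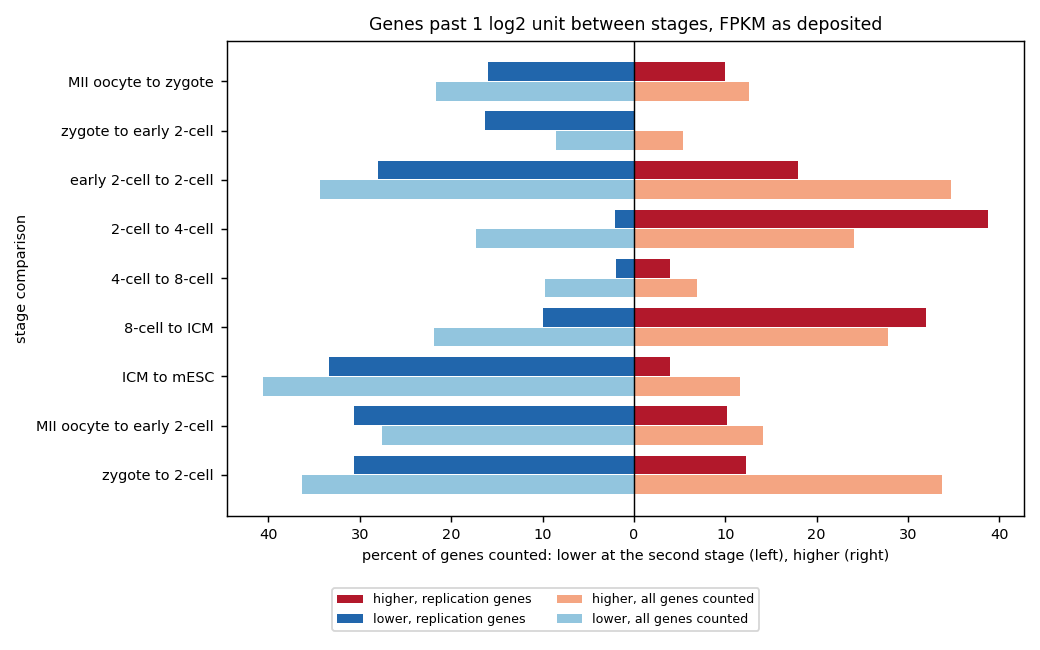
Share of genes counted that were higher (right) or lower (left) at the second stage by at least 1 on the log2(FPKM + 1) scale, for the replication genes (dark bars) and all genes (pale bars) in 9 comparisons of deposited stage values. From 2-cell to 4-cell the dark bars reach 38.8% higher and 2.04% lower.

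Genes that work beside the fork were described from 3 lists of other genes. Their counts from 2-cell to 4-cell stand beside 24.1% higher and 17.3% lower over all genes counted, and were not tested. Of 11 nucleotide supply genes, all 11 were counted from 2-cell to 4-cell, with 6 higher and 2 lower. Nme1, a nucleoside diphosphate kinase, was at 65.3 FPKM in 2-cell, 271 in 4-cell, 357 in 8-cell and 509 in ICM. Tyms, which makes thymidylate, was at 3.86, 23.4, 70.5 and 25.3 in the same stages. Rrm2b, the alternative small reductase subunit, ran the other way, from 87 FPKM in MII oocyte to 0.65 in mESC. Of 24 genes of G1/S control, 13 were counted in the same interval, with 2 higher and 2 lower; Ccne1, cyclin E1, was at 1.73 FPKM in early 2-cell and 63 in 2-cell, and Rb1, which restrains E2F, at 13.6 in 2-cell and 0.0256 in ICM. Of 27 fork accessory and checkpoint adaptor genes, 22 were counted, with 6 higher and 1 lower; Uhrf1, which guides maintenance methylation, was at 126 FPKM in MII oocyte, 3.26 in 8-cell and 68.6 in ICM, and Rnaseh2a, an RNase H2 subunit, at 0.486 in MII oocyte and 35.1 in mESC.

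In 8-cell embryos, the knockdown of Nr5a2 left most replication genes without a call, and 2 were higher. Nr5a2 itself was at 13.1 to 25.2 FPKM in the 4 controls and at 3.76 to 6.72 in the 4 knockdown libraries (log2 difference -1.76, exact two-sided permutation p = 0.0286, the smallest that 4 against 4 allows). Across 8170 genes tested with limma, 54 of the 55 members passed the filter on low values (Mcm9 did not), 2 were called higher (3.7%, against 1.57% of all genes) and 0 lower (against 0.698%). By an unadjusted p under 0.05, 11 of the 54 (20.4%) were past it, against 20.6% of all genes. The groups did not overlap in 5 members (9.26%, against 11.8%). Labels do not say whether replicates were separate cultures or litters, so p-values measure only the spread between these samples.

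Asf1b, the histone chaperone, was at 8.32, 9.43, 14.2 and 10 FPKM across the controls, against 22.7, 49, 20.2 and 25.3 in the knockdown libraries. All 4 knockdown values lay above all 4 control values, with means of 10.5 ± 2.56 and 29.3 ± 13.3 (SD, n = 4). The log2 fold change was 1.34 (SE 0.29, limma adjusted p = 0.0417). In the stage table, normalized separately, Asf1b was at 103 FPKM in 2-cell, 63.6 in 4-cell and 29.5 in 8-cell. That 8-cell value lay above all 4 controls (8.32 to 14.2) and near the knockdown mean of 29.3.

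Cdc7, the kinase subunit, was at 4.9, 5.17, 8.99 and 9.3 FPKM across the controls, against 17, 18.6, 13 and 22.6 in the knockdown libraries, again without overlap. Means were 7.09 ± 2.38 and 17.8 ± 3.96 (SD, n = 4), and the log2 fold change was 1.24 (SE 0.27, limma adjusted p = 0.0429). The 8-cell value of Cdc7 in the stage table, 16.3 FPKM, also lay above all controls (4.9 to 9.3). For both genes the controls were thus the values apart from the stage table, and the cause was not tested. The ratio of stage value to control mean was 2.81 for Asf1b and 2.3 for Cdc7. Such gaps were not particular to these genes: among the 55 members the ratio ran from 0.31 to 7.48, with 11 above 2. Its median was 1.27 over members and 1.24 over 5795 genes at 5 FPKM or more. Both calls were close to the threshold of 0.05. Asf1b kept its call in 2 of 14 alternative settings and Cdc7 in 3 of 14, with adjusted p between 0.0297 and 0.144 for Asf1b and between 0.03 and 0.135 for Cdc7, and with the difference positive in each. Each call was lost when any of controls 1 to 3 or knockdowns 1, 2 or 4 was left out, and that of Asf1b also without control 4; for example, without control 1 the adjusted p was 0.129 for both.

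The helicase genes had lower means in the knockdown, and the origin recognition genes higher means, none of them called. All 6 MCM2-7 genes were lower on average, also with libraries scaled to one median, and all 6 origin recognition genes were higher, also when scaled, while 60.5% of all genes had a higher mean as deposited. When scaled, the median gene differed by 0.02, and the share of all genes with a higher mean is not given here. Of the other 10 roles, the 3 origin licensing genes were also all lower, scaled or not. The 2 genes of Okazaki fragment processing were lower on the log2(FPKM + 1) scale, scaled or not. Of these 2, however, Fen1 had FPKM means of 21.3 ± 5.11 in controls and 21.8 ± 9.43 in knockdown libraries (SD, n = 4). All roles named here were picked out after their values were seen. Mcm3 was at 34, 37.6, 27.3 and 45.1 FPKM across the controls, against 18.1, 15.6, 22.3 and 25.5 in the knockdown libraries, with no overlap (log2 fold change -0.79, SE 0.22, limma adjusted p = 0.088). Mean levels of Mcm5 were 31.5 ± 5.86 and 20.6 ± 6.03 FPKM, and of Mcm2 65.1 ± 15 and 49.1 ± 5.98 (SD, n = 4), in control and knockdown, and both overlapped between groups. Mcm4, at 20.1 ± 3.19 and 19.3 ± 4.58, differed least of the 6.

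Orc4 was at 6.05, 10.2, 10.6 and 11.2 FPKM across the controls, against 36.9, 18, 14.9 and 13.2 in the knockdown libraries (log2 fold change 0.97, SE 0.32, limma adjusted p = 0.133), and its groups did not overlap. Orc6 was at 75.3, 59.6, 78.2 and 76.5 FPKM against 142, 127, 86.1 and 80.4, also without overlap (0.55, SE 0.21, adjusted p = 0.173 by limma). Gins3 was at 5.32, 7.12, 6.45 and 4.88 against 10.3, 11.3, 6.57 and 11.7, with knockdown 3 inside the control range (0.64, SE 0.24, adjusted p = 0.171 by limma). Over all 54 members the median difference was 0.10, against 0.12 over all genes, and 32 of 54 were positive (59.3%, against 60.5%).

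Marker sums were also read in these libraries, and both overlapped between the groups. The 6 genes of the 2-cell stage summed to 0.199 to 2.33 FPKM in the controls and 1.33 to 5.71 in the knockdown libraries, with 4 to 5 of 6 listed at 0 in each control and 1 to 4 in each knockdown library, and the 6 pluripotency genes to 134 to 247 and 52.1 to 174. Of the 2-cell genes, Zscan4c, Zscan4d and Zscan4f were at 0 in all controls and at 0.0528 FPKM or less in the knockdown libraries. Knockdown 1, with 1 gene at 0, also had the lowest value of 1 read (0.53 relative to control 1), so counts at 0 are not free of depth. Differences in these markers between groups, and their part in the member differences, were not tested. Of the other pathway lists, 1 gene of 10 tested in nucleotide supply was called higher, Samhd1, a dNTP hydrolase, at 2.4 ± 1.19 FPKM in controls and 9.17 ± 3.02 in knockdown libraries (SD, n = 4; log2 fold change 1.59, limma adjusted p = 0.0313). None of 14 G1/S genes and none of 25 fork accessory genes was called, while 4 and 3 of them had an unadjusted p under 0.05, as did 20.6% of all genes. Scaling libraries to one median moved the median gene from 0.12 to 0.02 and changed the calls over all genes from 128 higher and 57 lower to 75 and 80.

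**Figure D4:**
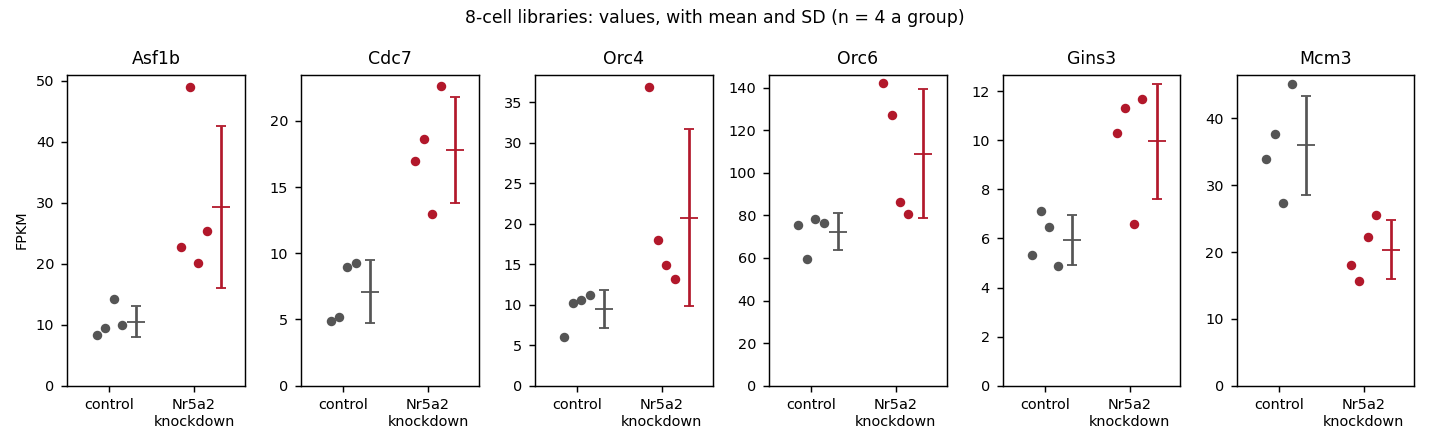
FPKM in each 8-cell library (points) with group mean and SD (bars, n = 4 a group) for the 6 members with the smallest p in the Nr5a2 comparison; axes start at 0. The groups do not overlap for Asf1b, Cdc7, Orc4, Orc6 and Mcm3, and only Asf1b and Cdc7 passed the adjusted threshold.

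In blastocysts, no replication gene was called after Gata4 knockdown. Gata4 was at 0.716 to 5.44 FPKM in the 3 controls and at 0 to 0.368 in the 4 knockdown libraries (log2 difference -1.73, exact two-sided permutation p = 0.0571, the smallest that 3 against 4 allows). Of 8782 genes tested with limma, 0 were called higher (0%) and 3 lower (0.0342%). Among the 54 members tested, 0 were called and 0 had an unadjusted p under 0.05 (202 of all genes did, 2.3%), and none had groups that did not overlap, against 2.38% of all genes. The smallest p belonged to Pold1, the catalytic subunit of polymerase delta, at 9.84, 8.41 and 8.54 FPKM in controls and 8.76, 6.47, 5.52 and 3.12 in knockdown libraries (log2 fold change -0.57, SE 0.41, limma adjusted p = 1). Chaf1a, at 0.49, Asf1b and Pole2, at 0.46 and 0.45, Gins3, at 0.41, and Mcm3ap, at -0.36, followed, each with a limma adjusted p of 1. The differences of Asf1b in the 2 knockdowns were 1.34 and 0.46; the difference between them was not tested.

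Blastocyst libraries also came in kinds that the groups do not explain. Rn45s was listed at 0 in control 2 and knockdowns 1 and 2 and at 37959 to 44718 FPKM in the other 4 libraries, so that each group held both kinds. With the knockdown in the model, 47 of 54 members were lower in the libraries with Rn45s (against 51.0% of all genes), at the limma adjusted threshold of 0.05, and 0 were higher. The median member differed by -0.94 and the median gene by -0.64. Asf1a was at 2.09 to 3.53 FPKM with Rn45s and 8.55 to 14.5 without (log2 difference -1.83, limma adjusted p = 0.00455), and Orc6 at 15.6 to 19.7 and 40.5 to 53.3 (-1.36, limma adjusted p = 0.00455). With libraries scaled to one median, 0 of 54 members and 1 of 8782 genes were called, while 16 members and 1529 genes had an unadjusted p under 0.05 in limma, and the medians were -0.26 and -0.05. Pold1 differed by -0.97 between knockdown and control within the libraries with Rn45s and by -0.14 within those without, and Asf1b by 0.66 and -0.11. The 6 pluripotency genes summed to 55.7 to 92.5 FPKM with Rn45s and 120 to 172 without, the 6 trophectoderm genes to 2205 to 3168 and 2956 to 4436, and their part in the member differences was not tested.

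Between controls, the coefficient of variation of members over the 4 controls of the 8-cell table had a median of 23.9% (28.2% over all genes tested), from 2.46% for Rrm2 to 82.8% for Pold4. Over the 3 blastocyst controls the median was 38.6% (39.3% over all genes), and 26.1% after scaling to one median.

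**Figure D5:**
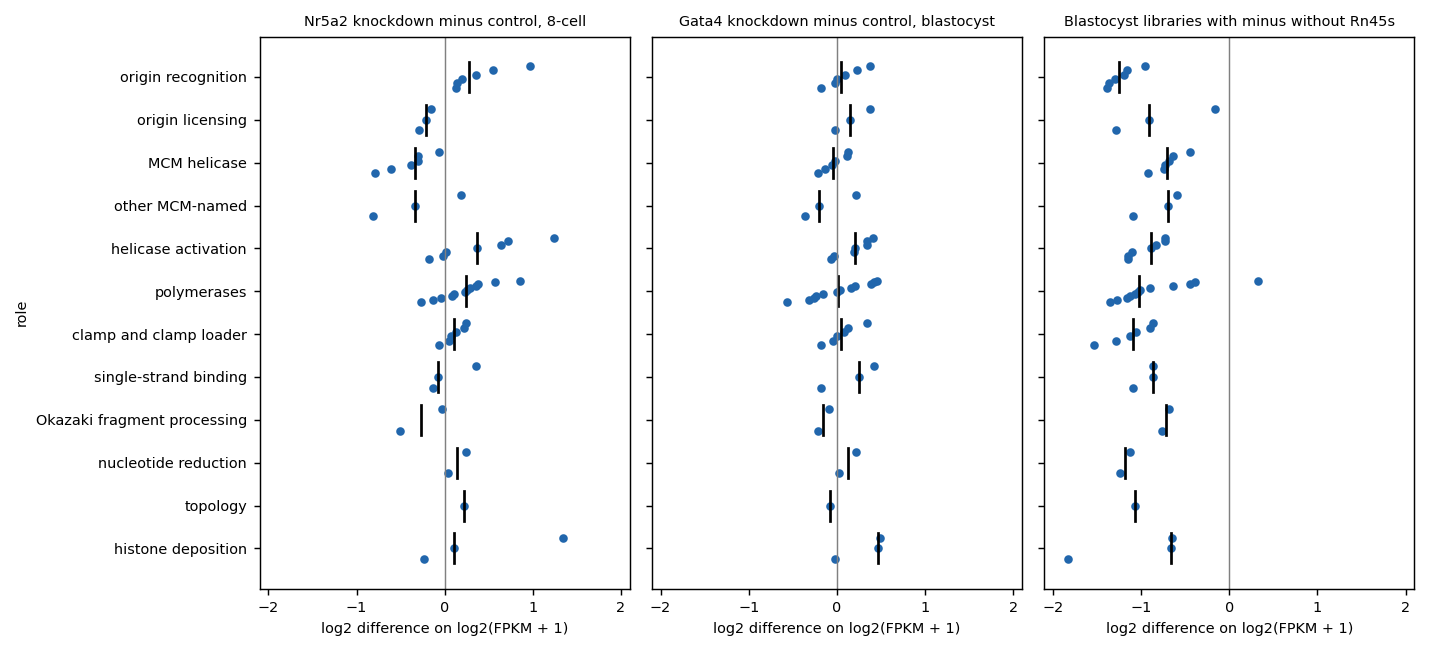
Log2 differences of the tested members on the log2(FPKM + 1) scale by role (points; black bar, median of the role) for the Nr5a2 knockdown, the Gata4 knockdown and blastocyst libraries with against without Rn45s. MCM helicase points lie left of 0 and origin recognition points right of 0 in the first panel, points straddle 0 in the second, and all but Pold4 lie left of 0 in the third.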

How the data were processed

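The submitters' processing notes name CASAVA 1.8, STAR 2.4.0 and the mm9 build for all 32 samples, and Cufflinks 2.2.1 for 20 of them. The authors deposited FPKM per gene, 1 value per stage in one table and 1 per library in each knockdown table. As the tables were normalized separately, tests were run only within a table. Levels set beside each other between tables are a description. Knockdowns were tested with limma 3.58.1 (R 4.3.3; trend in the prior variance) on log2(FPKM + 1), over genes with at least 1 FPKM in 4 libraries (8-cell) or 3 (blastocyst), with Benjamini-Hochberg adjustment over all genes; the fitting script was tested on simulated data. Fold changes on this scale understate those of low genes. Fold changes were named for members with an adjusted p under 0.05 and the 6 with the smallest p; of each pathway list, up to 4 genes were named by adjusted p or by their range over stages. Members and lists were chosen with earlier results of these data known. Copies were searched with minimap2 2.31 in GENCODE transcripts. Alternatives were another pseudocount (0.1 and 5), no filter, median scaling, quantile normalization, library type, a replicate block and leaving out each library. Correlations within a group were between 0.923 and 0.976, and no libraries were identical.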

Additional observations from a re-analysis of the deposited data

Results flagged for a closer look

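Among the members with a named fold change, 18 groups of 4 libraries were looked at, and in 1 of them a library stood apart by the gap to its nearest neighbour relative to the range of the group: Orc6 was at 59.6 FPKM in control 2 of the 8-cell table, with the other 3 controls at 75.3 to 78.2. Chance alone sets a library apart in about 1 in 20 groups.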

How the results depend on the processing

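The 2 members called higher in the Nr5a2 knockdown became 0 with a pseudocount of 0.1, without the filter, with median scaling and with quantile normalization, and ranged from 0 to 2 when 1 library was left out. With the replicate number as a block, 0 members were called and the calls over all genes went from 185 to 55; same-numbered samples share only a number, with correlations of their deviations from 0.0364 and 0.0821 to -0.108 and -0.0016 in the 8-cell table. Over all genes the Nr5a2 calls were 108 with a pseudocount of 0.1, 11 without the filter, and 21 to 285 when 1 library was left out, and the Gata4 calls went from 3 to between 0 and 27, with 18 under the block. No member was called in the Gata4 comparison under any of the 15 alternatives run. The log2 difference of Nr5a2 was between -1.95 and -1.64 without 1 library, where the smallest permutation p possible is 0.0571. Median scaling of the stages gave 8 members higher from MII oocyte to zygote, 5 lower from zygote to early 2-cell, 3 lower from 2-cell to 4-cell, 8 lower from 8-cell to ICM, 6 higher and 2 lower from ICM to mESC, and 9 lower from MII oocyte to early 2-cell. It gave 5 members with their maximum in early 2-cell, 10 in ICM and 14 in mESC. A pseudocount of 0.1 gave 2 members lower from 2-cell to 4-cell and 2 lower from 4-cell to 8-cell. No named difference changed sign under these alternatives, but within the blastocyst libraries without Rn45s those of Asf1b and Mcm3ap were -0.11 and 0.01, against 0.46 and -0.36 over all libraries. The absolute read depth is unknown, so low members such as Mcm9, Pold4 and Pole cannot be given a counting error.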

Other observations

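The level at the 8-cell stage could be read both in the stage table and in the 8-cell controls, in tables that were normalized separately. Of 55 members, 21 had a stage value inside the range of the 4 controls, and the median ratio of stage value to control mean was 1.27 (1.24 over 5795 genes at 5 FPKM or more). Pcna stood farthest apart, at 96 FPKM in the stage table and 10.6 to 17 in the controls, a ratio of 7.48. Mcm3ap was at the other end, at 1.38 FPKM against 3.23 to 7.11. The cause was not tested.

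Members higher at the 8-cell stage than at the 2-cell stage in the stage table were lower in the Nr5a2 knockdown in 18 of 36 cases (50%), and members lower at the 8-cell stage in 4 of 18 (22.2%); over all genes tested the shares were 45% and 30.8%. Across the 54 members the 2 differences had a Pearson r of -0.41 and a Spearman rho of -0.37, and across 8170 genes -0.21 and -0.22. These describe genes measured in the same libraries, which are not independent replicates.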
